A study of Homo sapiens with 3 samples.

Results

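The tissue kallikrein genes KLK5 to KLK14 were described across 3 treatments of HaCaT cells, an immortalized human keratinocyte line. The 10 genes were chosen by name, with earlier results of these data known, and the arrays hold 32 transcripts for them, among 42947 transcripts of 23595 named genes. Each treatment was measured on 1 single-colour NimbleGen array labelled with Cy3: cells given all-trans retinoic acid (ATRA, the active form of vitamin A) together with NIC, which the series' title gives as nicotinamide (ATRA+NIC array), cells given ATRA at 1 µM (ATRA array), and cells given neither (control array), all for 36 h. The sources used here do not give the dose of nicotinamide or say whether ATRA had the same dose beside it. There was no array of cells given nicotinamide alone, and all 3 arrays hold the same cell line grown in medium with serum. With 1 array for each treatment the precision is limited by that number, the treatments could not be tested against each other, and every difference below describes these arrays.

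Tissue kallikreins are secreted serine proteases encoded side by side in 1 gene cluster. They are made as inactive precursors and activate one another by cleavage. In the outermost epidermis they cut the proteins of the junctions that hold dead cells together, which lets those cells be shed, while inhibitors such as LEKTI (the product of SPINK5) hold them in check. KLK5 and KLK7 are the best known of these epidermal enzymes.

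The 10 genes lie on chromosome 19 in numerical order, within 140.9 kb at chr19:56138370-56279314 on build hg18, the build of the files. They form one end of a kallikrein cluster of 265.1 kb. One KLK8 and one KLK9 transcript overlap by 200 bases. Signal from that overlap cannot be assigned to either gene, and whether a probe lies in it was not tested. Kallikreins are paralogs of similar sequence, and whether a probe also bound another member was not tested.

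A gene's level is the mean log2 RMA intensity of its transcripts, and the intensities given for genes are the same means on the linear scale. Levels are compared between arrays for the same gene and never between genes. The technical scatter was the pooled SD of differences between transcripts that share a gene, which was 0.31 on the log2 scale for ATRA against control, 0.30 for ATRA+NIC against ATRA and 0.24 for ATRA+NIC against control. That scatter does not include differences between cultures. A difference is called by size, at 2-fold or more. A gene passed the filter on low values when its level on at least 1 array reached the median over all genes and arrays, which was 7.95 on the log2 scale. Of the 10 kallikreins 9 passed, KLK5, KLK6, KLK7, KLK8 and KLK10 on all 3 arrays and KLK9, KLK11, KLK13 and KLK14 on 2. KLK11 and KLK13 passed only through the ATRA+NIC and ATRA arrays. KLK12 was under the filter on every array.

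The arrays were alike in overall brightness. Their median transcript intensities were 297.9 for ATRA+NIC, 302.3 for ATRA and 301.5 for control, and random probes lay between 18.4 and 19.6. As a check of the labels, the retinoic acid hydroxylase gene CYP26A1 had log2 levels of 9.22 on the ATRA+NIC array and 8.42 on the ATRA array, against 6.27 on the control array. Of the other retinoid genes, CYP26B1 had 11.26, 10.85 and 8.75 in that order. DHRS9 was at least 4.61-fold higher for ATRA+NIC and at least 8.68-fold higher for ATRA against control. DHRS3 and CRABP2 differed by less than 2-fold. RARB had intensities of 22.5, 23.6 and 19.3 in the same order, near random probes, so its small difference is not read. Of 15 keratinocyte markers 14 passed the filter, KRT10 being the exception, and their summed intensity was 101032 on the ATRA+NIC array, 118701 on the ATRA array, against 144134 on the control array. These sums lean on bright genes such as KRT5, with log2 levels of 13.29, 13.29 and 14.86 in that order. On the ATRA array 9 of the 15 were higher than on the control array, beside 47.7% of all genes, with a median log2 difference of 0.05. On the ATRA+NIC array 6 of the 15 were higher than on the control array, beside 50.4%, with a median of −0.41. The summed intensity of 10 markers of secretory epithelium, among which HaCaT cells express simple keratins, was 99564, 101518 and 86875 in the same order of arrays. Of 12 leukocyte markers 10 were higher on the ATRA array than on the control array, beside 47.7% of all genes. Their sums were 3169 on the ATRA+NIC array, 5215 on the ATRA array, against 2756 on the control array. On these arrays 6, 4 and 6 of the 12 were under an intensity of 50. The sums lean on CD68, with intensities of 2339, 3399 and 1774 in the same order. Of 8 endothelial markers 5 were under 50 on the ATRA+NIC array, 6 on the ATRA array, against 6 on the control array, but CDH5, the gene of vascular endothelial cadherin, had log2 levels of 11.67, 11.31 and 7.70. The part of these marker levels in the kallikrein differences was not tested. In such bulk RNA, fewer cells of a kind and less RNA per cell cannot be told apart.

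The comparison of ATRA with control asks how the family stood in keratinocytes given the retinoid. KLK6, KLK13, KLK11 and KLK10 were at least 2-fold higher on the ATRA array. KLK5, KLK7 and KLK8, which include the main shedding proteases, were higher by a smaller amount, and KLK14 was lower. In all, 9 of 10 members were higher, beside 47.7% of all genes. At least 2-fold higher were 4 of the 10, beside 4.23% of all genes, and 1 was at least 2-fold lower, beside 3.22%. The median log2 difference was 0.43 over the 10 members and −0.03 over all genes. Counted by transcript, 13 of 32 were at least 2-fold higher, beside 5.33% of all named transcripts, and 30 of 32 were higher, beside 48% of them. These 13 come from the same 4 genes. Transcripts of a gene on the same array are not independent, so the transcript counts add no separate support.

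KLK6, also called neurosin, is a trypsin-like enzyme at chr19:56153698-56164741. Its level corresponded to an intensity of 11883 on the ATRA+NIC array, 13359 on the ATRA array, against 3527 on the control array. The log2 difference of ATRA from control was 1.92, or 3.79-fold, and that of ATRA+NIC from control was 1.75, or 3.37-fold. The 4 transcripts of KLK6 all had the control array lowest, with log2 differences between 1.56 and 2.23 for ATRA against control. Their intensities spanned 9236 to 13950 on the ATRA+NIC array, 11100 to 15598 on the ATRA array, against 2358 to 4515 on the control array. These ranges span transcripts read on the same array, so they do not measure the spread between cultures.

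KLK13, at chr19:56251274-56260179, encodes a trypsin-like protease that can cleave matrix proteins. It stood at an intensity of 686 on the ATRA+NIC array, 795 on the ATRA array, against 238 on the control array. That is a log2 difference from control of 1.74 for ATRA, or 3.34-fold, and of 1.53 for ATRA+NIC, or 2.88-fold. Its 4 transcripts lay between 376 and 964 on the ATRA+NIC array, between 449 and 1054 on the ATRA array against between 149 and 343 on the control array. Every KLK13 transcript was higher on both treated arrays than on the control array, by a log2 difference of at least 1.18.

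KLK11, called hippostasin or trypsin-like serine protease, at chr19:56217298-56223102, was a dim gene and was also lowest on the control array. It had an intensity of 289 on the ATRA+NIC array, 266 on the ATRA array, against 109 on the control array, with log2 differences from control of 1.28 for ATRA and 1.41 for ATRA+NIC. Its 4 transcripts were close to each other in the first of these differences, between 1.23 and 1.37. KLK11 depends on how low values are treated: with 100 added to each intensity before the logarithm its difference was 0.81 for ATRA and 0.90 for ATRA+NIC, both under 2-fold.

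KLK10, at chr19:56209337-56215094, was first described as a gene of normal mammary epithelial cells that is silent in many breast tumour lines. Its intensity was 18623 on the ATRA+NIC array, 17679 on the ATRA array, against 8383 on the control array. The log2 difference from control was 1.08 for ATRA, or 2.11-fold, and 1.15 for ATRA+NIC, or 2.22-fold. One of its 2 transcripts had 17748, 17990 and 7368 and the other 19542, 17373 and 9538 in that order of arrays, so both were lowest on the control array. The brighter transcript alone gave 0.87 for ATRA against control, under 2-fold.

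**Figure D1:**
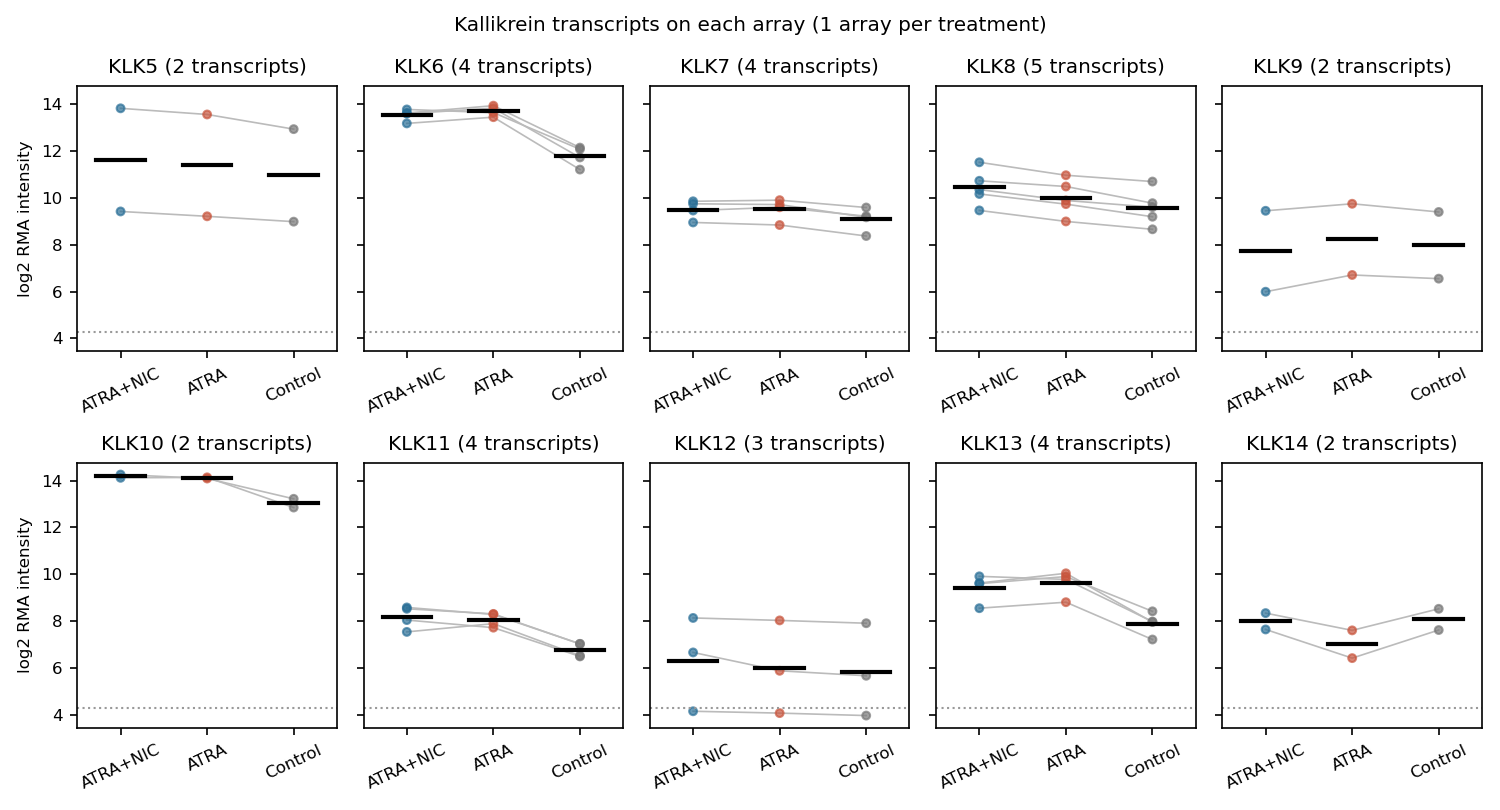
Log2 RMA intensity of each kallikrein transcript (points joined by grey lines) on the ATRA+NIC, ATRA and control arrays, 1 panel for each gene. Black bars are the gene level, the mean over transcripts, and the dotted line is the intensity of random probes. KLK5, KLK6, KLK7, KLK8, KLK10, KLK11, KLK12 and KLK13 are lowest on the control array in every transcript, while both KLK14 transcripts are lowest on the ATRA array.

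KLK14, a highly active trypsin-like enzyme of the stratum corneum that cleaves the protease-activated receptor PAR2, at chr19:56272385-56279314, was the exception. It had an intensity of 255 on the ATRA+NIC array, 129 on the ATRA array, against 270 on the control array. The log2 difference was −1.06 for ATRA against control, 2.08-fold lower, and 0.98 for ATRA+NIC against ATRA, 1.97-fold higher. Its transcripts had intensities of 200 and 325 on the ATRA+NIC array, 85.9 and 195 on the ATRA array and 197 and 369 on the control array. In each transcript the ATRA array was lowest. The ATRA+NIC array differed from the control array by 0.02 and −0.18 on the log2 scale, in the same order of transcripts. KLK14 was near the filter level, and with 100 added to each intensity its difference of ATRA from control was −0.67, under 2-fold.

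Promoters are shown for KLK6 and KLK13, whose differences were most alike among the members, and for KLK14, which differed in the opposite direction. The sequences are the 250 bases before the first listed start of each gene in RefSeq (GRCh38.p14, minus strand, written 5′ to 3′), at chr19:50969592-50969841 for KLK6, chr19:51065093-51065342 for KLK13 and chr19:51082857-51083106 for KLK14. Capitals mark the GC box GGGCGG, searched on both strands, whose reverse complement reads CCGCCC.
KLK6: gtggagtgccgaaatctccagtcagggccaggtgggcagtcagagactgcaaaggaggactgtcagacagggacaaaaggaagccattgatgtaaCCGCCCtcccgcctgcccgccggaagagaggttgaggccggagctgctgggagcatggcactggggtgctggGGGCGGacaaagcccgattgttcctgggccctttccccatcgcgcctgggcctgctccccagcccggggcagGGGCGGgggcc
KLK13: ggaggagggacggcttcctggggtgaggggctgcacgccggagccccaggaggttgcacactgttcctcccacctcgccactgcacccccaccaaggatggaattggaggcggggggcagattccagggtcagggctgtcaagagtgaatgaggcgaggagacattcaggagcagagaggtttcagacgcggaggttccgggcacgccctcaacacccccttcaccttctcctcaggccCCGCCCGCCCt
KLK14: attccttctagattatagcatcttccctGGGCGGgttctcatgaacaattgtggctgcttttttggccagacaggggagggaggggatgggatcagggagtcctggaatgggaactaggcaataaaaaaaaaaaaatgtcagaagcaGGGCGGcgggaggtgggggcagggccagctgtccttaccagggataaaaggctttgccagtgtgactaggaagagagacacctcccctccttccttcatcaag

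In the KLK6 window the GC boxes begin 155, 83 and 11 bases before the start. KLK13 has overlapping GC boxes that begin 11 and 7 bases before it, and KLK14 has them at 222 and 103. The table holds 16 starts for 9 of the 10 members, with none for KLK8, and some windows of a gene overlap. A GC box was present in 10 of these 16 windows, from KLK6, KLK7, KLK9, KLK11, KLK13 and KLK14, beside 42.6% of all 35116 promoter windows of that length. The retinoic acid receptor half-site AGGTCA, on either strand, was in 1 of the 16, the second KLK13 start, beside 12.1% of all. That match lies downstream of the first KLK13 start, outside the KLK13 window printed above. Direct repeats of that half-site spaced by 5 or by 2 bases matched none of the 16 and 0.00285% of all windows each. The AP-1 site TGANTCA was in none of the 16, beside 6.57% of all, and TATAAA in none, beside 10.7%. The windows of the members had a median GC content of 62.0%, and all windows 58.0%. These letters are descriptions of the windows, and no binding was measured.

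KLK5, KLK7 and KLK8 were higher on both treated arrays, each by less than 2-fold. KLK5, at chr19:56138370-56148088, encodes the trypsin-like enzyme that activates the precursors of KLK7 and KLK14. It had an intensity of 3140 on the ATRA+NIC array, 2669 on the ATRA array, against 1985 on the control array. Its log2 difference from control was 0.66 for ATRA+NIC and 0.43 for ATRA, and both of its transcripts followed the same order of arrays.

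KLK7, at chr19:56171540-56179106, encodes the chymotrypsin-like enzyme of the stratum corneum. It stood at 724 on the ATRA+NIC array, 729 on the ATRA array, against 543 on the control array, with log2 differences from control of 0.42 and 0.43 for ATRA+NIC and ATRA. All 4 transcripts were higher on each treated array than on the control array, and between the treated arrays 2 were higher and 2 lower.

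KLK8, at chr19:56191075-56197779, encodes neuropsin, a trypsin-like enzyme first studied in the brain and also present in the epidermis. Its intensity was 1391 on the ATRA+NIC array, 1031 on the ATRA array, against 767 on the control array. The 2 steps in this order were 0.43 each on the log2 scale, and all 5 transcripts followed it. With the mean over transcripts, KLK8 was the only one of the 10 members for which both steps in the order of arrays exceeded the technical scatter. That depends on how transcripts are combined. The KLK8 difference of ATRA from control was 0.28 with the median over transcripts and 0.27 with the brightest transcript. Both values are under the technical scatter of that comparison. The KLK8 transcripts were between 0.75 and 0.97 higher on the ATRA+NIC array than on the control array.

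KLK9 and KLK12 gave little signal or little difference. KLK9, at chr19:56197580-56204702, a less studied member, had an intensity of 211 on the ATRA+NIC array, 299 on the ATRA array, against 251 on the control array. Its log2 difference was 0.25 between ATRA and control and −0.25 between ATRA+NIC and control, and in this second comparison its 2 transcripts had opposite signs. KLK12, at chr19:56224159-56230298, encodes a trypsin-like enzyme and had an intensity of 79.9 on the ATRA+NIC array, 63.9 on the ATRA array, against 57.8 on the control array. One of its 3 transcripts had 17.8, 16.9 and 15.7 on those arrays, at or under the level of random probes. No fold is given for KLK12.

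The comparison of ATRA+NIC with control shares the control array with the one above, so the values of both stand side by side. KLK6, KLK13, KLK11 and KLK10, 4 of the 10, were at least 2-fold higher on the ATRA+NIC array, beside 2.32% of all genes. None of the 10 was at least 2-fold lower, beside 2.08% of all genes. In level, 8 of 10 members were higher, beside 50.4% of all genes, the exceptions being KLK9 and KLK14. The median log2 difference was 0.76 over the 10 members and 0.00 over all genes. By transcript, 14 of 32 were at least 2-fold higher, beside 2.95% of all named transcripts, and these again come from the same 4 genes. The leukocyte marker sum on this array, given above, was closer to that of the control array than the sum on the ATRA array was. Its bearing on the kallikrein differences was not tested.

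**Figure D2:**
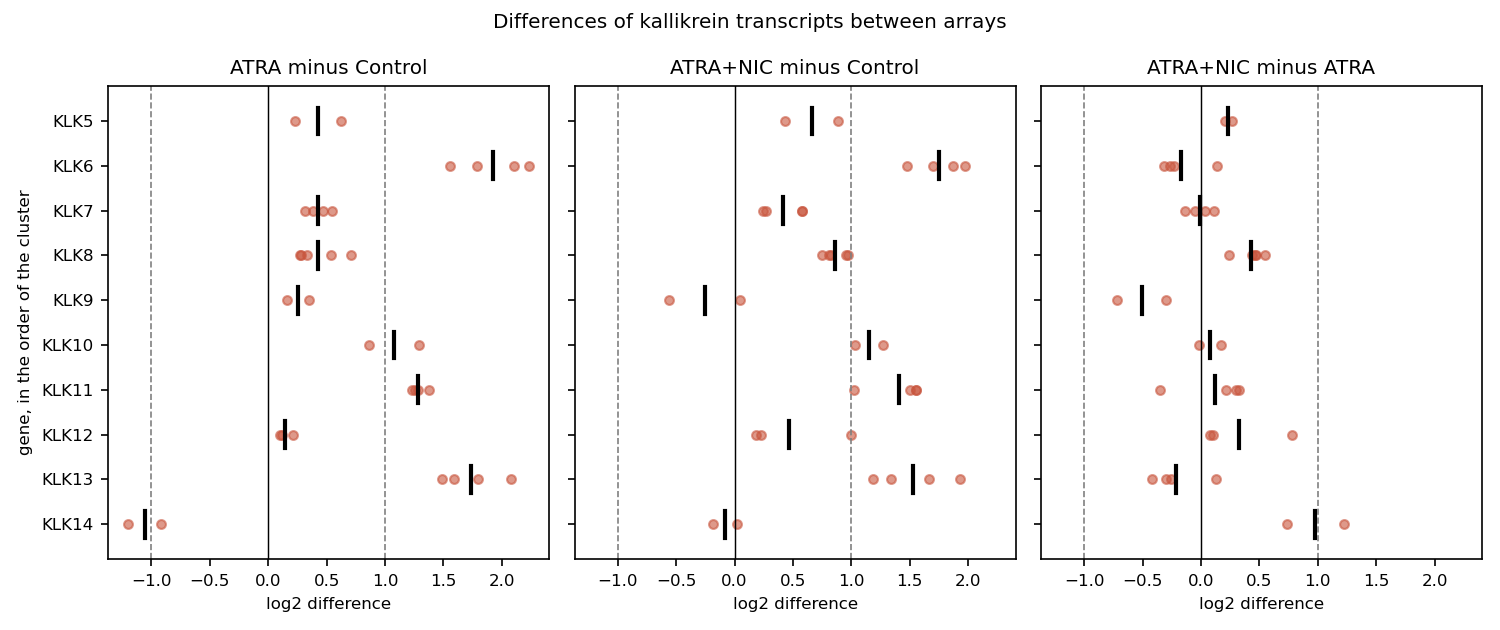
Log2 difference of each kallikrein transcript (points) and gene (black bars) for ATRA against control, ATRA+NIC against control and ATRA+NIC against ATRA, with dashed lines at 2-fold. Genes run down the page in the order of the cluster, and the panels share arrays. In the left panel KLK14 lies at −1.06 and KLK6 at 1.92, and in the right panel no gene reaches 2-fold.

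Setting ATRA+NIC against ATRA asks how the family stood when nicotinamide was given beside the retinoid. No member was at least 2-fold higher, beside 3.09% of all genes, and none was at least 2-fold lower, beside 4.12%. KLK14 came nearest to 2-fold, with the log2 difference of 0.98 given above. KLK5, KLK6, KLK7, KLK10, KLK11 and KLK13, 6 of the 10 members, differed by less than the technical scatter of 0.30, beside 49.1% of all genes. Their log2 differences ran from −0.21 for KLK13 to 0.23 for KLK5. With the culture error unmeasured, these small differences do not show that the treated cultures were alike.

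Beyond the scatter, KLK8 was 0.43 higher on the ATRA+NIC array than on the ATRA array on the log2 scale. KLK9 was lower there, with a difference of −0.51 and the same sign in both transcripts. In level 6 of 10 members were higher on the ATRA+NIC array, beside 54.2% of all genes, and the median log2 difference was 0.10 over the members and 0.04 over all genes. Of the 32 transcripts 1, from KLK14, was at least 2-fold higher, beside 3.83% of all named transcripts, and none was at least 2-fold lower, beside 5.19%.

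Read as an order of arrays, the control array was lowest for all members but KLK9 and KLK14, in KLK12 by less than the technical scatter. The share of all genes with that array lowest was not counted, so this order is not read as particular to the family. ATRA+NIC was the highest array for KLK5, KLK8, KLK10, KLK11 and KLK12, and ATRA for KLK6, KLK7, KLK9 and KLK13. For KLK5, KLK6, KLK7, KLK10, KLK11 and KLK13 the treated arrays were nearer to each other than the technical scatter, so their order is not given weight. The same holds for the control and ATRA arrays in KLK12 and KLK9, which lay 0.15 and 0.25 apart. Among pairs of members, the differences were most alike for KLK6 and KLK13, with a Euclidean distance of 0.19 in the log2 differences of ATRA from control and of ATRA+NIC from ATRA. KLK5 with KLK8 had a distance of 0.20, and KLK10 with KLK11 one of 0.21.

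The pattern of KLK6, the member with the greatest difference between ATRA and control, was set against the other 12466 genes that passed the filter, over the 3 arrays. Nearest by the same distance were TMPRSS4, which encodes a membrane-bound serine protease, at 0.07, the annexin gene ANXA10 at 0.11, and LCN2, which encodes the iron-siderophore binding protein lipocalin 2, at 0.12. KLK13 was the next at 0.19, followed by EXOC3L4, also at 0.19. TMPRSS4 had log2 levels of 11.43 on the ATRA+NIC array, 11.55 on the ATRA array, against 9.68 on the control array. LCN2 had 14.23, 14.51 and 12.54. KLK11 ranked 47 and KLK10 ranked 98 in nearness to KLK6, while KLK14 ranked 12253. With 3 arrays many genes can share such a pattern.

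The remaining kallikreins of the cluster, KLK1, KLK2, KLK3, KLK4 and KLK15, lie at the other end and include the prostate-specific antigen gene KLK3. None of these 5 was at least 2-fold different in any of the 3 comparisons, beside 2.08% to 4.23% of all genes in each direction. KLK1 alone passed the filter, with log2 levels of 8.39 on the ATRA+NIC array, 8.69 on the ATRA array, against 8.46 on the control array, and low signal limits what the other 4 can show. Genes other than kallikreins within 250 kb of the cluster numbered 9 before, 2 within and 7 after it. Among them CD33, a sialic acid-binding receptor gene of myeloid cells, was the only one at least 2-fold different. Over all genes, 4.23% were at least 2-fold higher for ATRA against control and 4.12% lower for ATRA+NIC against ATRA. CD33, with 1 transcript, had log2 levels of 7.51, 9.43 and 7.57 in the same order and passed the filter on the ATRA array alone. It was higher on the ATRA array by 1.86 against control, whereas KLK14, the nearest kallikrein on that side, was lower, with a difference of −1.06.

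**Figure D3:**
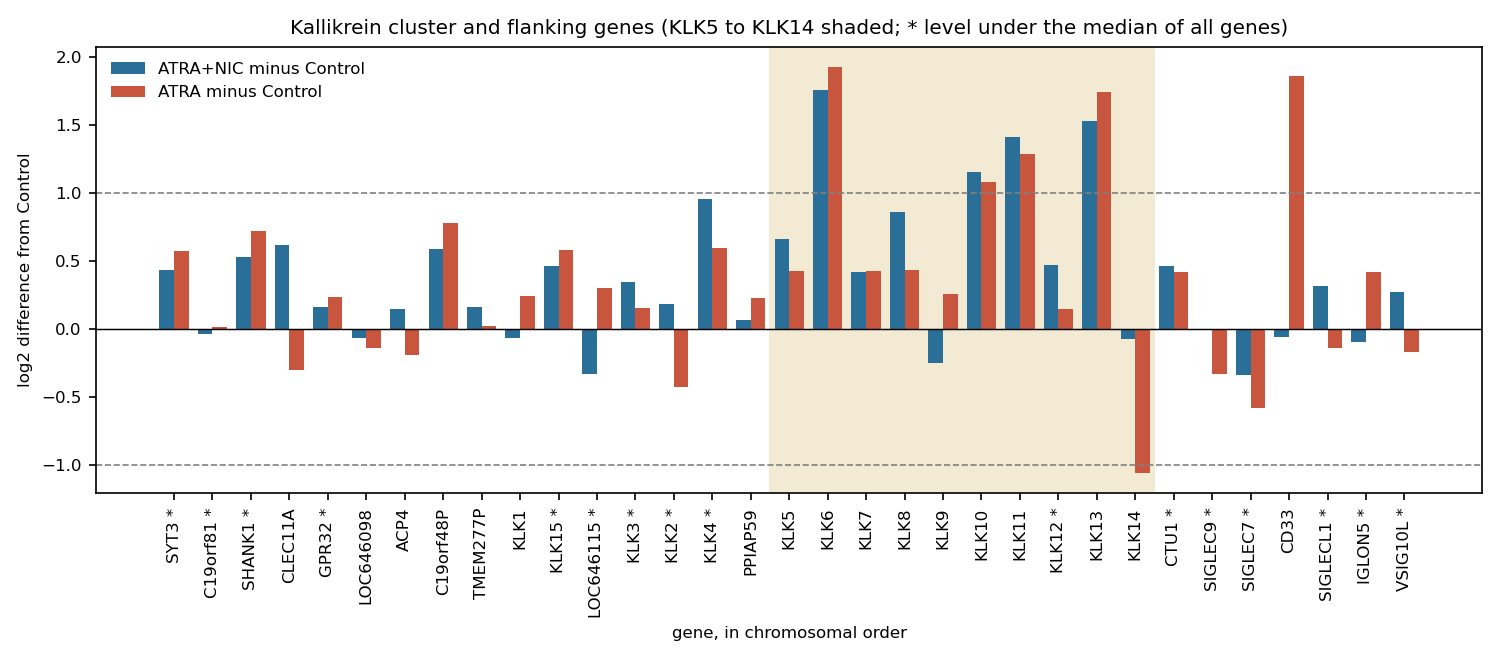
Log2 difference from control for ATRA+NIC (blue) and ATRA (red) of the kallikrein genes and the genes within 250 kb, in chromosomal order, with KLK5 to KLK14 shaded and dashed lines at 2-fold. Asterisks mark genes under the filter on all arrays. Bars past 2-fold stand at KLK6, KLK10, KLK11, KLK13 and KLK14 and, outside the shaded genes, at CD33.

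Partner genes of the kallikreins were taken from lists of inhibitors, activating proteases and substrates. Of 15 inhibitor genes 3 passed the filter, and 3 of 15 were at least 2-fold higher on the ATRA array than on the control array, with none lower, beside the 4.23% and 3.22% of all genes given above. SERPINA3, which encodes the serine protease inhibitor antichymotrypsin, had log2 levels of 8.43 on the ATRA+NIC array, 10.19 on the ATRA array, against 6.57 on the control array. It was thus 3.62 higher for ATRA against control and lower for ATRA+NIC against ATRA, with a difference of −1.76. SERPINF2, the gene of antiplasmin, had 10.59, 10.86 and 9.82, and the third, SERPINA5, was higher by 1.02 at levels under the filter. SPINK5, whose product LEKTI inhibits KLK5, KLK7 and KLK14, was under the filter at 6.37 on the ATRA+NIC array, 7.11 on the ATRA array, against 6.95 on the control array.

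Of 12 genes of activating proteases and their inhibitors 4 passed the filter. None of the 12 was at least 2-fold different in any comparison, beside 2.08% to 4.23% of all genes in each direction. With so few genes, a count of none is near that share. ST14, which encodes matriptase, an activator of kallikrein precursors, had log2 levels of 13.45 on the ATRA+NIC array, 13.34 on the ATRA array, against 13.06 on the control array. PRSS8, the gene of prostasin, had 12.87, 12.95 and 12.39. Its 0.56 for ATRA against control was beyond the technical scatter and under 2-fold. Of 10 other proteases of cornification none was at least 2-fold different between ATRA and control, or between ATRA+NIC and ATRA. Over all genes, 3.09% to 4.23% were in each direction. Between ATRA+NIC and control CASP14, the gene of an epidermal caspase, was lower, with a log2 difference of −1.44, at levels under the filter, which is at least 1.65-fold with values under 50 set to 50.

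**Figure D4:**
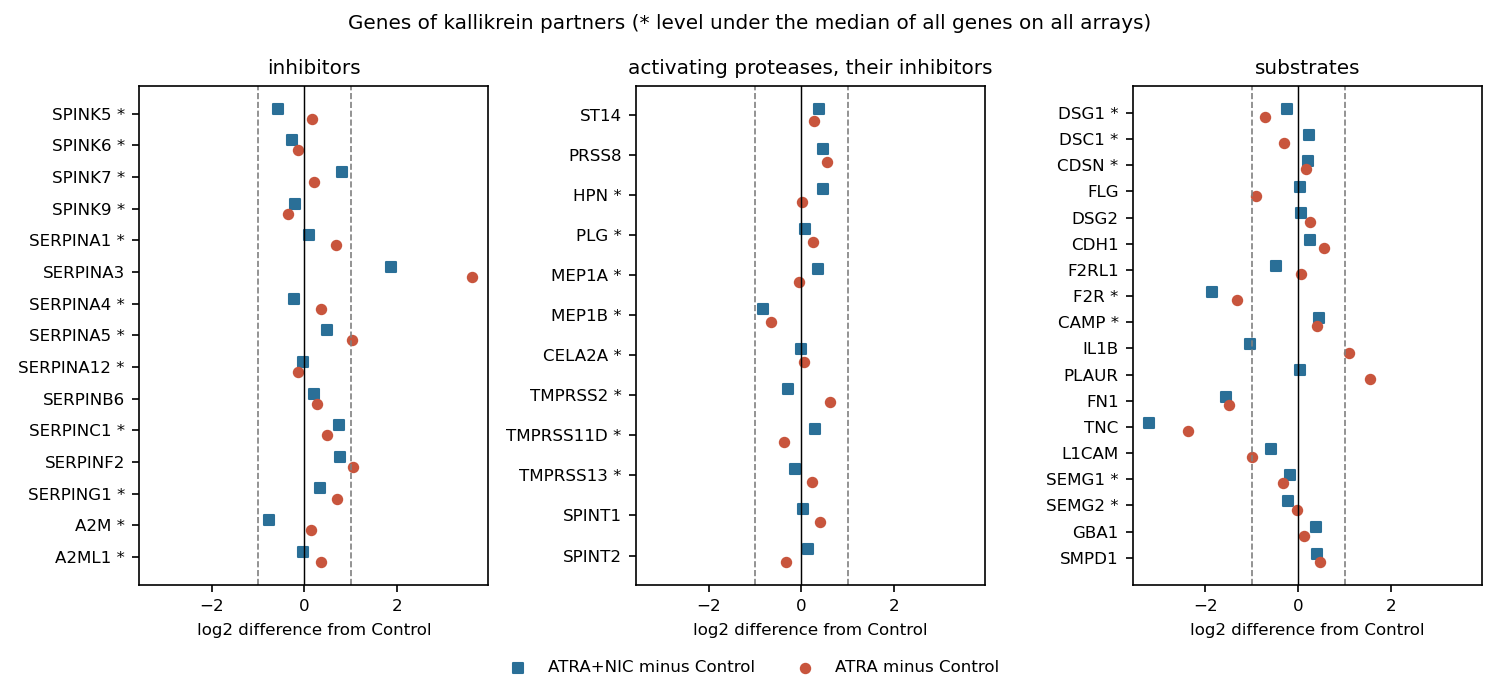
Log2 difference from control for ATRA+NIC (blue squares) and ATRA (red circles) of genes for kallikrein inhibitors, activating proteases with their inhibitors, and substrates, with dashed lines at 2-fold. Asterisks mark genes under the filter on all arrays. SERPINA3 lies farthest to the right, at 3.62 for ATRA, and TNC farthest to the left.

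Of 18 substrate genes 11 passed the filter. Against control, 2 were at least 2-fold higher on the ATRA array and 3 lower, beside 4.23% and 3.22% of all genes. On the ATRA+NIC array none was higher and 4 were lower, beside 2.32% and 2.08%. IL1B, whose precursor KLK7 can cleave, had log2 levels of 10.83 on the ATRA+NIC array, 12.97 on the ATRA array, against 11.88 on the control array. PLAUR, the gene of the urokinase receptor, had 10.55, 12.05 and 10.51. For both, the ATRA array was the highest. They were the 2 substrate genes at least 2-fold lower on the ATRA+NIC array than on the ATRA array, beside 4.12% of all genes.

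The matrix genes FN1 and TNC were lower on both treated arrays. FN1, the fibronectin gene, had log2 levels of 11.54 on the ATRA+NIC array, 11.61 on the ATRA array, against 13.10 on the control array. TNC, the tenascin C gene, was at least 4.36-fold lower for ATRA+NIC and at least 3.19-fold lower for ATRA against control, with values under 50 set to 50. F2R, the thrombin receptor gene, was under the filter and lower as well, with a log2 difference of −1.31 for ATRA and by at least 3.05-fold for ATRA+NIC against control. The junction proteins that kallikreins cut during shedding were weakly represented. DSG1, the gene of desmoglein 1, had log2 levels of 4.42 on the ATRA+NIC array, 3.95 on the ATRA array, against 4.66 on the control array, near random probes. CDSN, the corneodesmosin gene, was under the filter at 7.39, 7.35 and 7.17.

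FLG, the filaggrin gene, was lowest on the ATRA array, as KLK14 was. It had log2 levels of 8.75 on the ATRA+NIC array, 7.81 on the ATRA array, against 8.72 on the control array, with a difference of −0.91 between ATRA and control and one of 0.94 between ATRA+NIC and ATRA, both under 2-fold. F2RL1, which encodes the receptor PAR2 that KLK5 and KLK14 can activate, had 9.17, 9.71 and 9.64 with a difference of −0.54 for ATRA+NIC against ATRA. CAMP, the gene of the cathelicidin precursor that KLK5 and KLK7 process, was under the filter at 6.25, 6.21 and 5.80.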

How the data were processed

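RNA of 3 HaCaT cultures was hybridised, 1 array each. The authors deposited intensities on a linear scale for 45033 transcripts of 3 probes (2 had fewer), which are RMA gene calls per the file headers. The program is not given in the sources used for this work. Log2 was taken of the deposited intensities without further scaling, and a column headed as a standard error was not used. The intensity table of the series deposited by the authors holds the 31275 transcripts at or above 50 on all arrays and served as an alternative. Of 23619 Entrez numbers 20230 matched a symbol of RefSeq GRCh38.p14, used for names and promoter windows only. Coordinates of genes are on hg18.

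The filter kept 12467 of 23595 genes. It selects genes high on 1 array, so counts cover all members and all genes. Where a dim value lay under 50, it was set to 50 and the fold is "at least". Only the 2-fold size rule was tried on simulated gene levels, with noise smaller than the technical scatter. That trial does not bear on the other steps or on the error between cultures. A design entry for protein identity between members was not run, since no protein sequences were at hand.

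Members, lists, naming rule and alternatives were chosen with earlier results of these data known. All 10 members, a fixed set of partner and retinoid genes, cluster neighbours at least 2-fold different and the 5 genes most like KLK6 are named. Other list genes could be named when they were at least 2-fold different and passed the filter or were among the 3 greatest differences of their list in a comparison, and not all of them are. Python 3.11.15, numpy 2.4.6, pandas 2.3.3 and matplotlib 3.10.9 were used.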

Additional observations from a re-analysis of the deposited data

How the results depend on the processing

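Counts and medians were recomputed over the members that passed the filter in each setting. No difference of a member past 2-fold changed sign. Between ATRA and control, the count of members at least 2-fold lower, 1 in the report (KLK14), was 0 with the brightest transcript of each gene, 0 with 100 added before the logarithm, 0 in the series' value table and 0 with the filter at the 75th percentile. KLK14's log2 difference of −1.06 was −0.92 and −0.67 in the first 2 of these settings. In the value table it was still −1.06, and there and at the 75th percentile KLK14 left the count by not passing the filter. These last settings kept 6 and 4 members and gave a median log2 difference of 0.75, against 0.43. The count of members at least 2-fold higher for ATRA against control was 4 in the report. It was 3 with the brightest transcript, 3 with 100 added before the logarithm and 3 in the value table. For ATRA+NIC against control it was also 4, and was 3 with 100 added and 3 in the value table. At the 75th percentile, 2 members were at least 2-fold higher for ATRA and 2 for ATRA+NIC against control, since fewer members were tested. Between ATRA+NIC and ATRA, 1 member was higher with arrays centred on their medians (KLK14, 1.00) and 1 at 1.5-fold, against 0. KLK10 fell short of 2-fold for ATRA against control with its brightest transcript. KLK7 for ATRA+NIC against ATRA, and KLK9 for ATRA+NIC against control, had the opposite sign in 1 of 6 settings each, at 0.01 and 0.05. No paired analysis was possible because each treatment has 1 array, and for the same reason no array could be left out. The cause of the sign changes was not tested. Low signal limits KLK12, KLK11 and KLK14 most.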
